A study of Rattus norvegicus with 84 samples.

Results

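The comparison described here sets 7 libraries labelled Core Ctx_Sal against 7 labelled Core HC_Sal, 14 of the 84 libraries of the series. Core and Shell are the subregions of the nucleus accumbens, a forebrain region that receives dopamine from the midbrain. The rats were wild-type Long-Evans animals, and the series as a whole concerns cocaine abstinence. Sal is read as saline and Coc as cocaine. The labels do not spell out Ctx and HC, so the groups are called by these codes. They give no age, sex, dose or time. Libraries were chosen by title alone, and no measured value entered the choice. All 14 share the tissue label Core and the Sal treatment, so no library in the comparison is labelled as cocaine treated. The titles number the libraries in 3 runs, 1, 2 and F, called series here, with 2, 3 and 2 libraries in each group. The labels do not say what a series is or that each library came from a separate rat, so the p-values measure the spread between these libraries, which may be technical.

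Most neurons of the accumbens are GABA-releasing projection neurons of 2 kinds, one with the D1 dopamine receptor and the peptides dynorphin and substance P, the other with the D2 receptor, enkephalin and an adenosine receptor. Immediate early genes are transcribed within minutes of strong neuronal activity, and many carry cAMP response elements in their promoters, which bind the factor CREB. Their level in tissue is therefore widely used as a trace of recent activity.

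The counts held 14.1 to 22.5 M (mega) reads per library. Genes of projection neurons were looked up by FPKM, counts divided by gene length and library total. The gene lengths behind it can span introns, so levels of different genes cannot be compared on this scale. Mean FPKM in Ctx_Sal and HC_Sal was 55 and 50.6 for Penk (enkephalin), 13.5 and 14.0 for Drd1 (D1 receptor), 2.01 and 2.04 for Drd2 (D2 receptor) and 3.63 and 3.58 for Adora2a (adenosine receptor). All these defining genes were present in both groups. They mark projection neurons of both subregions, so they do not check the label Core against Shell.

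Libraries differed most in a property that the groups do not define. Olfactory and vomeronasal receptor genes are hardly transcribed in brain, so counts in the 1386 of them were used to describe how libraries differ in makeup. The origin of these counts is not given in the labels and was not tested. Their summed level, called the background here, was 6.64 to 10.02 log2 CPM (log2 of counts after every library is brought to the same total) in Ctx_Sal with a median of 8.89, and 7.64 to 10.20 in HC_Sal with a median of 9.67. The groups overlapped, and the mean difference of -0.89 was within the spread (8.44 ± 1.49 against 9.33 ± 0.94, SD, n = 7 each, two-sided exact permutation test, p = 0.199, and p = 0.144 with labels permuted within series only). The mean was lower in Ctx_Sal in each series, at 6.87 against 9.05 in series 1, 9.62 against 9.79 in series 2 and 8.24 against 8.92 in series F. The first principal component of the 14 libraries held 82.3% of the variance and had a correlation of 0.986 with the background over these 14 libraries, which share it as part of their makeup. Only in series 1 did the groups not overlap in background: 6.64 and 7.10 in Ctx_Sal against 8.43 and 9.67 in HC_Sal.

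**Figure D1:**
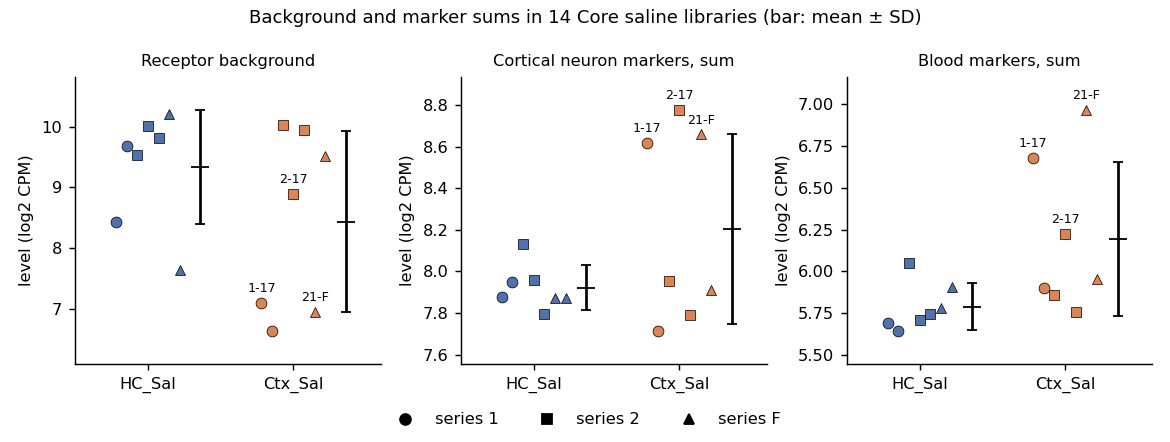
Receptor background and the summed levels of 13 cortical neuron markers and 10 blood markers (log2 CPM, y axis) in the 7 HC_Sal and 7 Ctx_Sal libraries (x axis), with a bar for the mean and SD. Symbols give the series, and the 3 labelled Ctx_Sal libraries lie above every HC_Sal library in the cortical and the blood sum.

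No gene differed between Core Ctx_Sal and Core HC_Sal at an adjusted p under 0.05 in edgeR's quasi-likelihood test with series as covariate. Of 28461 genes tested 0 passed (0%), and the lowest adjusted p was 0.734. At an unadjusted p under 0.05 there were 124 genes higher in Ctx_Sal (0.436% of those tested) and 355 lower (1.25%). With 1 library left out in turn each of the 14 fits also called 0, and the genes at an unadjusted p under 0.05 went from 479 to between 67 (without HC_Sal 7-F) and 4190 (without Ctx_Sal 23-F). DESeq2's Wald test also called 0, with 1391 genes at an unadjusted p under 0.05. On counts simulated for these 14 libraries the same test recovered 87% of 100 genes changed 4-fold and 30% of 100 changed 2-fold, so a difference of 2-fold in a single gene was often not detectable at this number of libraries.

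The genes of lowest unadjusted p on the higher side had differences of 0.35 to 1.09 (log2 fold change), and all are given as values that did not pass (adjusted p = 0.734 for each, edgeR). Myo1c, a membrane-linked myosin motor, had levels of 3.59 to 4.29 log2 CPM in Ctx_Sal with a median of 4.21, and 3.46 to 3.97 in HC_Sal with a median of 3.65. The difference was 0.40 ± 0.13 (log2 fold change, SE), 6 of 7 Ctx_Sal libraries lay above the HC_Sal mean, and the groups overlapped. Acat2, an enzyme of acetyl-CoA metabolism, was at 3.12 to 3.69 against 2.65 to 3.22, a difference of 0.41 ± 0.14 with 7 of 7 libraries above the HC_Sal mean. Pgap6 was at 3.21 to 3.68 against 2.92 to 3.30, a difference of 0.38 ± 0.13 with 7 of 7 above.

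Within each series these 3 genes had estimates above 0. Myo1c gave 0.45, 0.34 and 0.42 in series 1, 2 and F. Acat2 gave 0.35, 0.44 and 0.45, and Pgap6 gave 0.48, 0.19 and 0.54. With the background as a further covariate their differences were 0.32, 0.30 and 0.30.

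The other genes named by rule on this side were Slc46a1 (the proton-coupled folate transporter) at 0.43 ± 0.15, Phospho1 (a phosphatase of bone mineralisation) at 0.54 ± 0.18, Ntn3 (a netrin) at 0.65 ± 0.23, Pld4 (a nuclease of myeloid cells) at 0.38 ± 0.14, Anxa11 (an annexin) at 0.35 ± 0.12, Map4k2 (a kinase) at 0.36 ± 0.13 and Rgs11 (a regulator of G-protein signalling) at 0.44 ± 0.16. Nrn1 and Nptxr, the remaining members, stand with the cortical genes below.

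On the lower side the genes of lowest p under this rule were mostly ones with few counts. LOC120102906 and LOC681255, left out by the rule and given below, had an unadjusted p of 0.0201 and 0.00687 (edgeR). Brs3, a bombesin-like peptide receptor, was at -0.12 to 1.74 log2 CPM in Ctx_Sal with a median of 0.72, and at 0.97 to 1.94 in HC_Sal with a median of 1.45. Its difference was -0.74 ± 0.27, with 1 of 7 Ctx_Sal libraries above the HC_Sal mean. Cdkn3, a phosphatase of the cell cycle, was at 1.13 to 2.10 against 1.71 to 2.37, a difference of -0.43 ± 0.16. Cyp4v3, a cytochrome P450, gave -0.34 ± 0.13. Rad21l1 and Smc1b, cohesin subunits of meiotic cells, gave -0.57 ± 0.22 and -1.12 ± 0.45.

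Vom2r22, Vom2r37 and Vom2r47, vomeronasal receptors that belong to the background measure itself, gave -1.11 ± 0.43, -0.86 ± 0.34 and -0.98 ± 0.40. Slco1b2 (an anion transporter of liver) gave -0.99 ± 0.39, Skint1 -0.95 ± 0.38, Anhx -0.67 ± 0.27 and the pseudogene Grlf1-ps1 -1.10 ± 0.44. With the background as covariate Slco1b2 moved to -0.32, Smc1b to -0.36 and Vom2r22 to -0.50. Brs3 moved to -0.51.

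In 5 genes (0.0176% of those tested) the libraries of the groups did not overlap, and these were named after their values were seen. Katnal1, a microtubule-severing protein, was at 4.92 to 5.19 log2 CPM in Ctx_Sal with a median of 5.01, and at 4.70 to 4.87 in HC_Sal with a median of 4.82. The difference was 0.24 ± 0.09, with estimates of 0.17, 0.26 and 0.27 in series 1, 2 and F and 0.24 with the background as covariate. Samd10 was at 1.61 to 2.89 against 1.11 to 1.48, a difference of 0.58 ± 0.21, and its highest value, in library 1-18, stood apart from the other Ctx_Sal libraries. LOC120102906, LOC681255 and the pseudogene Rpl12-ps1 lay lower in every Ctx_Sal library, at -0.54 ± 0.21, -0.78 ± 0.25 and -0.89 ± 0.27. Reads of a ribosomal protein pseudogene and of its parent gene are hard to tell apart, so the last value is uncertain.

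**Figure D2:**
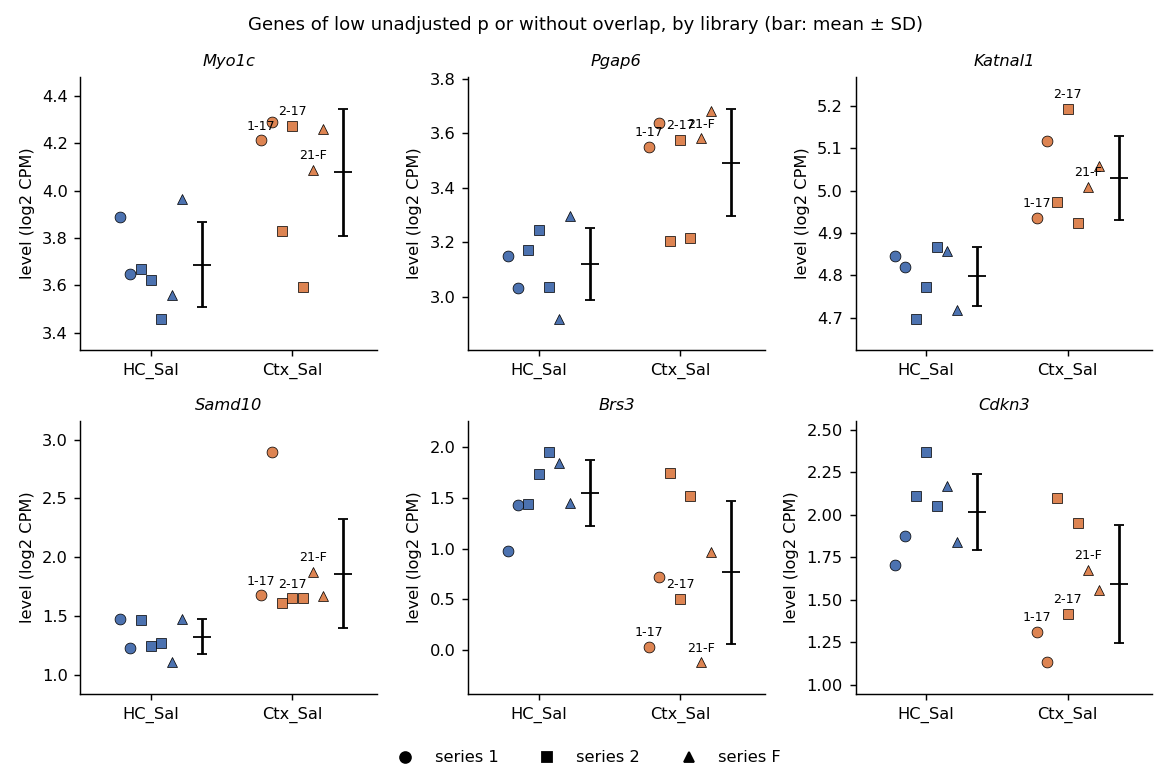
Levels (log2 CPM, y axis) of 6 genes in each HC_Sal and Ctx_Sal library (x axis), with a bar for the mean and SD and symbols for the series. The groups do not overlap in Katnal1 and Samd10 and overlap in Myo1c, Pgap6, Brs3 and Cdkn3.

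Genes of cortical glutamatergic neurons were high in 3 Ctx_Sal libraries and not in the other 4. Slc17a7, the vesicular glutamate transporter of cortical neurons, was at 1.45 to 6.41 log2 CPM in Ctx_Sal with a median of 3.64, and at 1.88 to 4.53 in HC_Sal with a median of 2.70. Libraries 1-17, 2-17 and 21-F, 1 of each series, held 6.33, 6.30 and 6.41, above every HC_Sal library. The difference was 2.14 ± 0.83 (95% interval 0.37 to 3.91, unadjusted p = 0.0215, adjusted p = 0.734, edgeR), with within-series estimates of 2.44, 1.26 and 3.28. Without these 3 libraries it was -0.55.

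Of the 13 cortical markers 0 passed and 5 had an unadjusted p under 0.05, all higher in Ctx_Sal: Slc17a7, Nrn1 (neuritin) at 1.00 ± 0.34, Nptx1 (neuronal pentraxin) at 0.84 ± 0.38, and the transcription factors Neurod2 at 1.32 ± 0.60 and Neurod6 at 1.44 ± 0.65. The last 2 were named after their values were seen. The list's median was 0.09, against -0.02 for all genes tested. Without the 3 libraries Nrn1 was at 0.24, Nptx1 at -0.08, Neurod2 at -0.41 and Neurod6 at -0.34. The summed level of the list was 7.71 to 8.77 log2 CPM in Ctx_Sal and 7.80 to 8.13 in HC_Sal, and all 13 markers passed the filter on low counts.

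In several other genes, from other lists or named by low p, the same 3 libraries were among the highest. Cck (cholecystokinin, abundant in cortex) was at 4.20, 4.24 and 4.15 in them and at 1.90 to 2.38 in the other 4 Ctx_Sal libraries, a difference of 1.28 ± 0.48 that was -0.09 without them. Nptxr (the neuronal pentraxin receptor) moved from 1.09 ± 0.38 to 0.18, Cnr1 (the CB1 cannabinoid receptor) from 0.51 ± 0.23 to -0.03, Stx1a (syntaxin, in vesicle release) from 0.46 ± 0.18 to 0.10 and Adcy1 (an adenylyl cyclase) from 0.36 ± 0.15 to 0.08. Hapln4 (a link protein of perineuronal nets) moved from 0.74 ± 0.27 to 0.20, but here library 1-18, at 3.93, was as high as 1-17, 2-17 and 21-F at 3.98, 3.96 and 3.54. The 3 libraries were picked for their high cortical genes, so smaller estimates of such genes without them follow from the choice. Leaving them out left 4 of Ctx_Sal and took the genes at an unadjusted p under 0.05 from 479 to 43. Leaving out 1 library at a time gave 67 to 4190, so the count alone does not single out these 3. What sets these 3 libraries apart was not tested.

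**Figure D3:**
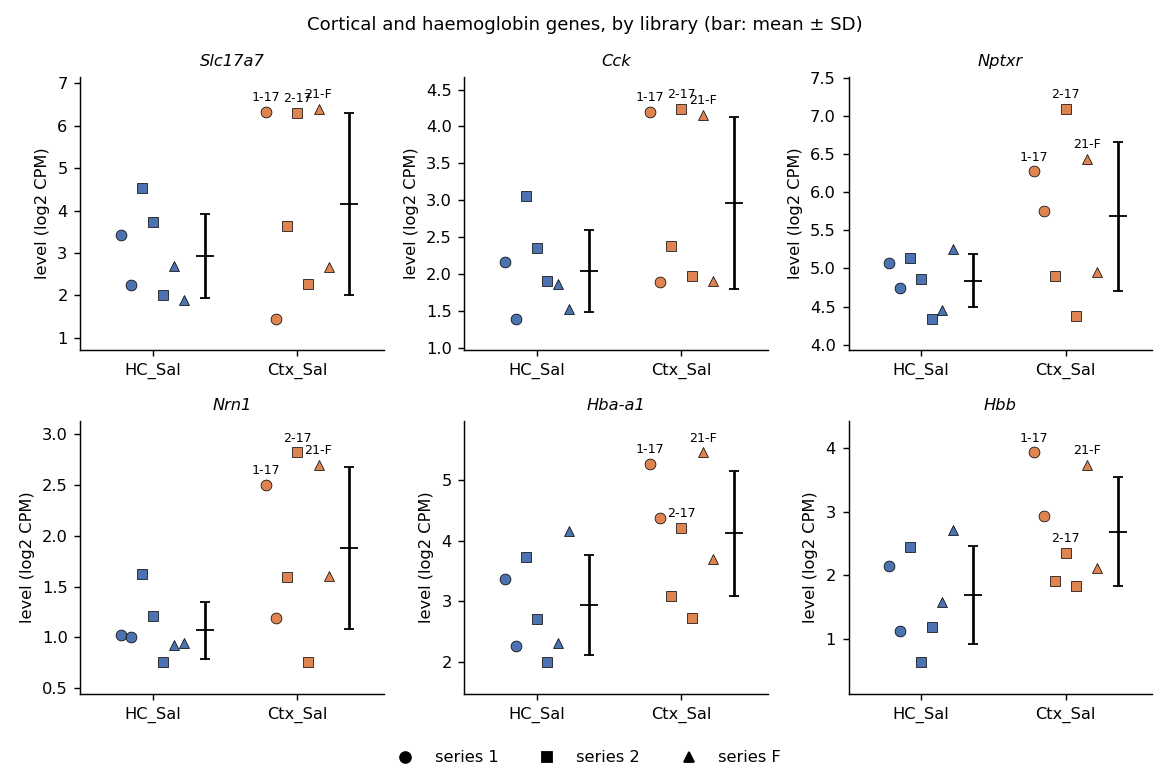
Levels (log2 CPM, y axis) of 4 genes abundant in cortex and 2 haemoglobin genes in each HC_Sal and Ctx_Sal library (x axis), with a bar for the mean and SD. Libraries 1-17, 2-17 and 21-F stand above the other Ctx_Sal libraries in Slc17a7, Cck, Nptxr and Nrn1.

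Haemoglobin genes had positive estimates as well. Hba-a1, an alpha globin, was at 2.73 to 5.45 log2 CPM in Ctx_Sal with a median of 4.21, and at 2.00 to 4.15 in HC_Sal with a median of 2.72. The difference was 1.16 ± 0.43, and the groups overlapped. Hba-a2 gave 1.06 ± 0.47 and Hbb, a beta globin, 0.97 ± 0.39 (adjusted p = 0.734 for each, edgeR). Without the 3 libraries they gave 0.44, 0.25 and 0.43, and with the background as covariate 0.52, 0.33 and 0.45. Of the blood list 8 of 10 genes were tested, 4 had estimates above 0 and 0 passed. In bulk tissue, more blood cells and more RNA per cell cannot be told apart, and the same holds for every cell type below.

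Immediate early genes did not pass in either direction. Of the 30 on the list, 15 had estimates above 0 and 15 below, the median was 0.01, and 1 gene on each side had an unadjusted p under 0.05: Nptx2 (a secreted pentraxin) at 0.62 ± 0.24 and Ccn1 (a matrix-associated protein) at -0.50 ± 0.22. Fos was at 1.91 to 3.93 log2 CPM in Ctx_Sal with a median of 2.77, and at 2.23 to 4.02 in HC_Sal with a median of 2.97. Its difference was -0.31 ± 0.30 (95% interval -0.95 to 0.34), and the groups overlapped. Estimates within series were 0.64, -0.45 and -1.01 in 1, 2 and F.

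The other early genes named by rule had intervals on both sides of 0. Fosb gave -0.28 ± 0.23, Arc (a synaptic capsid-like protein) -0.01 ± 0.33, Egr1 0.03 ± 0.30, Npas4 -0.04 ± 0.19, Nr4a1 -0.05 ± 0.21 and Bdnf (the neurotrophin) -0.37 ± 0.30. The summed level of the list was 8.67 to 10.12 log2 CPM in Ctx_Sal and 8.67 to 10.06 in HC_Sal, and over the 14 libraries it had a correlation of -0.92 with the background, a description that shares the library composition.

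With the background as covariate most early gene estimates were lower than with series alone, and still 0 passed (the lowest adjusted p of that fit was 0.549). In this fit 26 of 30 estimates were below 0, the median was -0.29 against -0.02 for all genes, and 14 had an unadjusted p under 0.05 on the lower side, where 4.34% of all genes tested had one. On the higher side 0 of 30 had one, with 0.956% of all genes. The downward move was not particular to early genes. Myelin, mitochondrially encoded and ribosomal protein genes, whose sums also followed the background, lay almost all below 0 in this fit. Microglial genes did not, as given below. Fos was at -0.72 ± 0.19, Arc at -0.57 ± 0.18, Fosb at -0.56 ± 0.15, Egr1 at -0.48 ± 0.12 and Nr4a1 at -0.33 ± 0.14 (adjusted p = 0.818 for each, edgeR). Named after their values were seen, Junb gave -0.69 ± 0.17 and Nr4a3 -0.53 ± 0.11. The activity-linked genes Vgf (a neuropeptide precursor) and Irs2 (an insulin receptor substrate), also seen first, gave -0.44 and -0.47, and Cartpt gave -0.66.

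The early genes' estimates depended on which libraries entered. Without the 3 libraries high in cortical genes and with the covariate, 18 of 30 had an unadjusted p under 0.05 on the lower side (3.72% of all genes) and the median was -0.32. In the 8 libraries with a background above 9, 3 of Ctx_Sal and 5 of HC_Sal, 8 of 30 had one (1.18% of all genes) and the median was -0.24. In series 1, the only series where the groups did not overlap in background, Fos, Arc, Junb and Vgf were at 0.64, 0.56, 0.67 and 0.53. Background and group cannot be told apart within series 1.

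**Figure D4:**
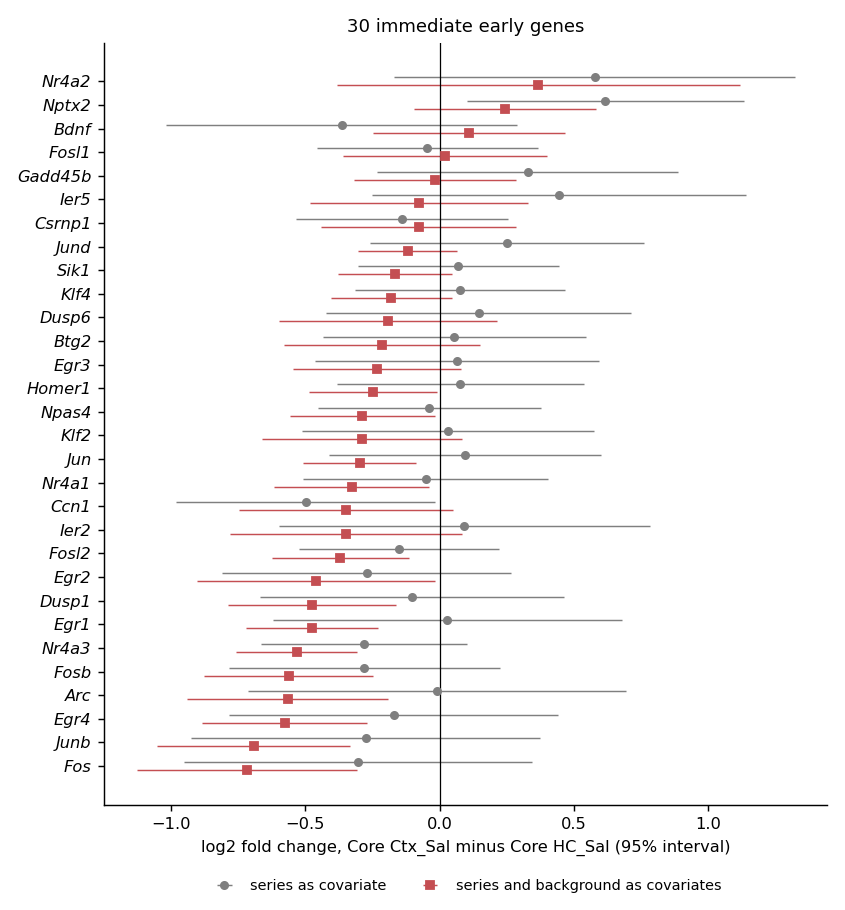
Log2 fold change of Core Ctx_Sal minus Core HC_Sal (x axis) with its 95% interval for each of 30 immediate early genes (y axis), with series alone and with series and background as covariates. With the background as covariate 26 of 30 estimates lie below 0, and 15 of 30 do with series alone.

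The upstream sequence of 3 activity-linked genes is shown because their estimates were all below 0 with the background as covariate. They were picked after their values were seen. Each stretch holds 120 bases of the RefSeq promoter table (build GRCr8, not the build of the counts), 5′ to 3′ on the gene's strand, with matches to the cAMP response element in capitals.
Vgf, chr12:25277021-25277140, minus strand: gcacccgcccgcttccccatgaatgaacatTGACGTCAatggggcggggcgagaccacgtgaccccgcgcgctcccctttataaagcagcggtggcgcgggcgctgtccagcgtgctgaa
Cartpt, chr2:32991276-32991395, minus strand: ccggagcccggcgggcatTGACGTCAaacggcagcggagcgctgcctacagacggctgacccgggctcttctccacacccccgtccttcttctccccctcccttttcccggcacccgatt
Nr4a1, chr7:134260018-134260137, plus strand: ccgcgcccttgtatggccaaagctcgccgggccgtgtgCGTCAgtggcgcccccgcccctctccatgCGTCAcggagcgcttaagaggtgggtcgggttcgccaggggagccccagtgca

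Vgf and Cartpt held the full element TGACGTCA, which reads the same on both strands, starting at -90 and -142 from the annotated start. Nr4a1 held the part element CGTCA at -82 and -53. Of 33469 promoters, 1.59% held TGACGTCA and 18.2% held CGTCA or its reverse complement TGACG in the 250 bases before the start, and every full element also contains a part element. A match describes letters only.

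Projection neuron genes had estimates near 0. Of the 8 D1-type markers 6 and of the 7 D2-type markers 5 had estimates above 0, none passed, and the medians were 0.06 and 0.12. Drd1 was at 5.01 to 6.90 log2 CPM in Ctx_Sal with a median of 5.56, and at 5.29 to 6.80 in HC_Sal with a median of 5.76, a difference of 0.08 ± 0.27. The dynorphin gene Pdyn gave 0.08 ± 0.26 and the substance P gene Tac1 0.03 ± 0.30. Drd2 gave 0.12 ± 0.18, Penk 0.24 ± 0.27 and Adora2a 0.16 ± 0.20. Ctx_Sal 2-17, high in cortical genes, had the lowest D1-type and D2-type sums of the 14 libraries, at 8.16 and 9.32 log2 CPM. It was also lowest in Drd1 (5.01), Pdyn (4.63) and Penk (6.93), and highest in the septal, pallidal and thalamic sum (7.95). Libraries 1-17 and 21-F were not low, with D1-type sums of 8.84 and 8.72.

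The D3 receptor gene Drd3 gave -0.27 ± 0.13, with 2 of 7 Ctx_Sal libraries above the HC_Sal mean (unadjusted p = 0.0517, adjusted p = 0.734, edgeR). Its lowest levels were in Ctx_Sal 1-17, 1-18 and 21-F, at 3.51, 3.59 and 3.61 log2 CPM. In HC_Sal they were in 15-F and 1-11, at 3.95 and 3.99. These were also the libraries of lowest background in their groups. The mu opioid receptor gene Oprm1 was at 5.21 to 5.72 against 5.47 to 5.67, a difference of -0.18 ± 0.10. Cartpt, the CART peptide precursor, gave -0.28 ± 0.29. Of the 15 interneuron genes 11 had estimates above 0 and 4 below, 0 passed and the median was 0.05. Slc18a3, the vesicular acetylcholine transporter of cholinergic interneurons, gave 0.53 ± 0.22 with 7 of 7 above, at a level near 0 log2 CPM, and Slc17a8, a vesicular glutamate transporter also found in these cells, gave -0.33 ± 0.21 with 2 of 7 above.

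Glial and housekeeping lists leaned above 0 without a call. All 12 astrocyte genes, 13 of 14 microglial genes, 13 of 14 myelin genes, all 13 mitochondrially encoded genes and 42 of 43 ribosomal protein genes had estimates above 0, with medians of 0.22, 0.28, 0.07, 0.21 and 0.19. The astrocyte water channel gene Aqp4 gave 0.27 ± 0.23, the myelin gene Mbp 0.15 ± 0.28, COX1 of the respiratory chain 0.33 ± 0.28 and the ribosomal protein gene Rpl30 0.42 ± 0.31. The microglial receptor genes Csf1r and Trem2 gave 0.34 ± 0.15 and 0.37 ± 0.17.

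The summed levels of these 5 lists had correlations of -0.97, -0.96, -0.91, -0.96 and -0.95 with the background over the 14 libraries. With the background as covariate the numbers with estimates above 0 were 3 of 12, 11 of 14, 0 of 14, 0 of 13 and 1 of 43. The choroid plexus and ependyma list went the other way, with a correlation of 0.95, 1 of 11 estimates above 0 with series alone and 6 of 11 with the covariate. Prlr, the prolactin receptor, moved from -0.71 ± 0.37 to -0.09.

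**Figure D5:**
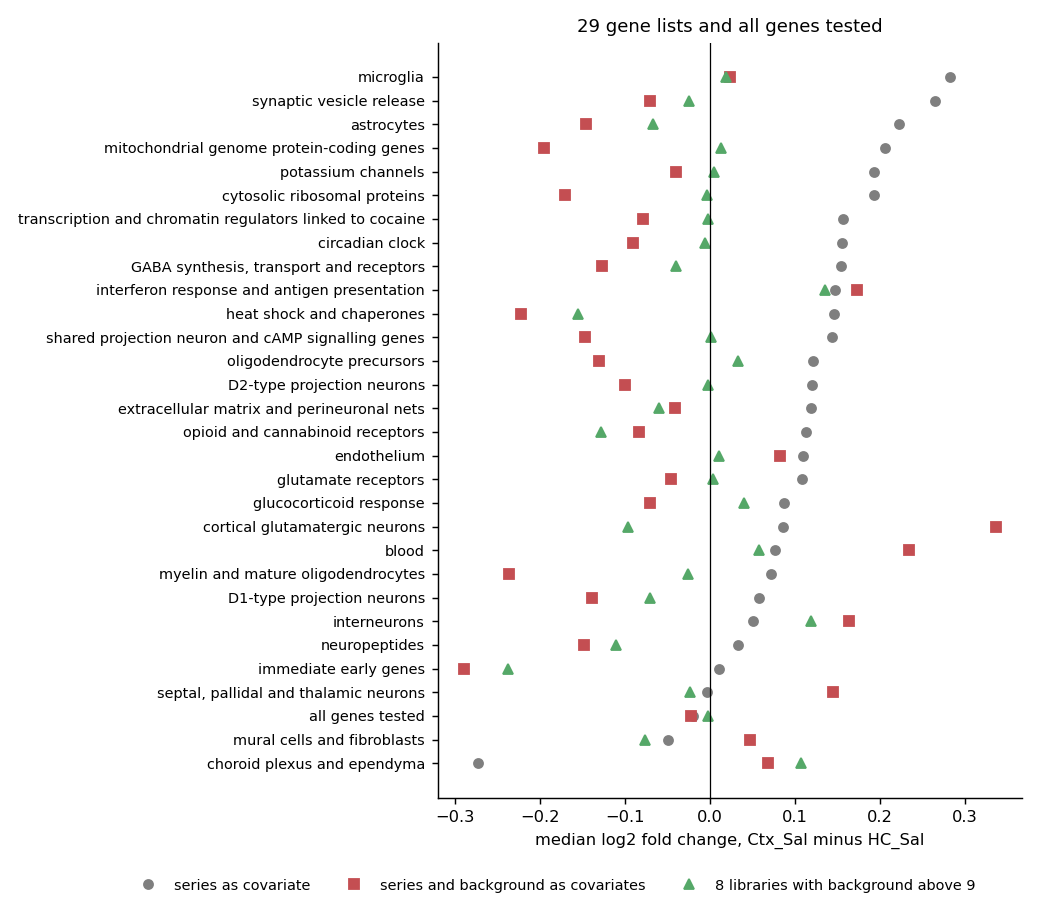
Median log2 fold change of Core Ctx_Sal minus Core HC_Sal (x axis) over the members of 29 gene lists and over all genes tested (y axis), with series alone, with the background as a further covariate, and in the 8 libraries with a background above 9. Most medians lie above 0 with series alone and below 0 with the background as covariate, and the immediate early genes have the lowest median in the latter fit.

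The same contrast in the cocaine groups of the Core was set beside the saline contrast over disjoint libraries. By itself it called 0 genes (0%, lowest adjusted p = 0.493, edgeR), with 678 at an unadjusted p under 0.05 and 159 without Core Ctx_Coc 17-F, a library that stands apart. The difference between the contrasts passed for 0 of 30683 genes (lowest adjusted p = 0.393, edgeR), with 2428 (7.91%) at an unadjusted p under 0.05 578 without Core Ctx_Coc 17-F and 775 with the background as covariate, where the median of all genes went from -0.14 to 0.01. The background ran opposite ways in the 2 contrasts, with means of 9.53 in Ctx_Coc and 8.55 in HC_Coc against 8.44 and 9.33 in the saline groups. DESeq2 also called 0, with 4158. In this and the Shell difference, genes were ranked by the rule given above. The genes of lowest p were Plcd1 (a phospholipase C) at 0.51 ± 0.16, Pgap6 at 0.62 ± 0.20, Rad21l1 at -0.94 ± 0.30, Clec11a at 0.68 ± 0.22, Trnp at -1.15 ± 0.38 and Atg4a (an autophagy protease) at 0.78 ± 0.26, saline minus cocaine. Without 17-F they were at 0.44, 0.51, -0.77, 0.56, -0.90 and 0.70 (adjusted p = 0.646 for each, edgeR). With the saline value from the 14-library fit and the cocaine value from the fit of all 28, Myo1c gave 0.40 ± 0.13 in saline and -0.14 ± 0.14 in cocaine, Fos -0.31 ± 0.30 and -1.14 ± 0.37, and Slc17a7 2.14 ± 0.83 and -0.52 ± 0.74. Without 17-F the cocaine values were -0.04, -0.93 and -0.40. The differences tested directly over all 28 libraries, saline minus cocaine, were 0.88 ± 0.51 for Fos and 2.74 ± 1.07 for Slc17a7 (adjusted p = 0.393 for each, edgeR). Fos was at -0.67 ± 0.25 in cocaine without 17-F and with the background as covariate, against -0.72 ± 0.19 in saline with the covariate.

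The Shell saline contrast by itself called 0 genes (0%, edgeR), with 169 at an unadjusted p under 0.05. Against it, the Core saline contrast differed for 0 of 30000 genes (lowest adjusted p = 0.960, edgeR), with 448 (1.49%) at an unadjusted p under 0.05, 1694 with the background as covariate and 707 by DESeq2, and these alternatives also called 0. The genes of lowest p were Trnh at -0.94 ± 0.29, Ulk3 (a kinase) at 0.57 ± 0.18, Gpr143 at -0.62 ± 0.21, Faap100 (of the Fanconi core complex) at 0.54 ± 0.18, Chst3 (a sulfotransferase of chondroitin) at 0.56 ± 0.19 and Gfral (the GDF15 receptor) at -0.69 ± 0.25, Core minus Shell. With the Core value again from the 14 libraries and the Shell value from the fit of 28, Slc17a7 gave 2.14 ± 0.83 in Core and 1.88 ± 0.93 in Shell, Hba-a1 1.16 ± 0.43 and 0.92 ± 0.40, and Fos -0.31 ± 0.30 and -0.47 ± 0.24. Nptxr gave 1.09 ± 0.38 and 1.21 ± 0.46. The differences tested directly, Core minus Shell, were 0.28 ± 1.30 for Slc17a7 and 0.26 ± 0.56 for Hba-a1. For Fos and Nptxr they were 0.17 ± 0.35 and -0.10 ± 0.64. Myo1c gave 0.12 ± 0.14 in Shell. The 3 Shell Ctx_Sal libraries with the highest cortical sums were 3-17, 4-17 and 22-F at 8.95, 9.18 and 8.37 log2 CPM, beside 8.62, 8.77 and 8.66 in Core 1-17, 2-17 and 21-F. Their blood sums were 6.26, 6.27 and 6.33, beside 6.68, 6.22 and 6.96. Libraries 3-17 and 4-17 carry the number 17, as do 1-17 and 2-17, and the labels do not say whether Core and Shell libraries came from the same rats, so the Shell values of Slc17a7, Nptxr and Hba-a1 are no independent support for those in Core.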

How the data were processed

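RNA of rat accumbens Core was made into stranded total RNA libraries for low input, per the labels' protocols. The deposited values are raw counts per gene, which the submitters' processing notes tie to featureCounts and the build mRatBN7.2. How the authors aligned reads, handled strand or removed duplicates is not given in the sources used here, so overlapping or antisense genes and near-identical copies cannot be told apart. The deposited FPKM values imply 1 length per gene (within 1% for all 19687 genes checked), which for Drd2 is 63986 bases and so spans introns. FPKM was used only to describe whether genes were present, since such lengths do not allow levels to be compared between genes.

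Groups come from the titles. Counts of 14 libraries were filtered with filterByExpr, scaled by TMM and tested with edgeR 4.0.16 (R 4.3.3, quasi-likelihood F test, two-sided, Benjamini-Hochberg adjustment over all genes tested, threshold 0.05), with series as covariate. The SE was taken as the estimate divided by the root of F. DESeq2 1.42.0 was an alternative. Levels are log2 CPM with a prior count of 2. The differences from the cocaine and Shell contrasts used 28 libraries each, and the code was tested on simulated data. No pair of libraries was identical (0 pairs), and 0 sample columns were left unused.

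Named genes were the 12 of lowest p in each direction, up to 3 of lowest p per list, 15 fixed genes, and 6 per difference of contrasts. The 12 and the 6 came from genes with a mean log2 CPM of at least 1. Symbols that are identifiers, such as LOC numbers, were left out of both. Not all are printed, and any other is said to be named after its value was seen. The comparison, the 29 lists and the rules were chosen with earlier results of these data known. The symbol pattern of the receptor genes, the 3 libraries left out and the background limit of 9 were chosen after seeing the data. A first pattern that also took pseudogenes was replaced.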

Additional observations from a re-analysis of the deposited data

Results flagged for a closer look

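In 5 of 144 checks of a gene's or the background's level within a group of 7 libraries, 1 library lay far from the other 6, and chance gives about 1 in 20 such groups. Samd10 was at 2.89 log2 CPM in Core Ctx_Sal library 1-18, with the next library at 1.87. Penk was at 9.02 in Core HC_Sal library 15-F, with the next at 8.05. Slc18a3 was at -0.56 in Core HC_Sal library 7-F, the lowest, with the next at -0.13. LOC120102906 was at 0.27 in Core Ctx_Sal library 1-17, the lowest, with the next at 1.13. LOC681255 was at 0.68 in Core HC_Sal library 2-11, the highest, with the next at 0.06. Libraries 15-F and 1-18 had the lowest background of their groups, at 7.64 and 6.64, and 7-F the highest of its group, at 10.20. The part of the background in these values was not tested.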

How the results depend on the processing

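The main comparison called 0 genes under 27 of its 31 alternatives, including DESeq2, both other filters, all 42 Core libraries and the background as covariate. Series 1 alone, with 2 libraries a group and no overlap in background, called 11328 (3717 higher, 7611 lower), series 2 alone 3 and series F alone 2. LOC120099834 was lower in series 2 (-2.93) and higher in series F (4.01). The 6 libraries with a background of 9 or below, 4 of Ctx_Sal against 2 of HC_Sal, called 3449 (163 higher, 3286 lower). The cause was not tested. Leaving out 1 library gave 0 to 0 calls. Both differences of contrasts called 0 in every alternative run. The background difference kept its sign, between -1.17 and -0.59 log2 CPM with 1 library left out (exact permutation p from 0.107 to 0.370, and 0.144 with labels permuted within series, added after seeing the data), and as a percent of counts it was -0.0232 (p = 0.270). Between the scalings the median of all genes in the saline minus cocaine difference went from -0.14 to -0.19, and with no filter it was -0.32. That median was 0.01 with the background as covariate, and the genes at an unadjusted p under 0.05 were 775 for saline minus cocaine and 1694 for Core minus Shell. In the main comparison the genes at an unadjusted p under 0.05 were 1391 by DESeq2, 1072 with no filter, 158 with no series covariate, 1148 in the numbered series only, 43 without the 3 libraries high in cortical genes and 1507 with the background as covariate.

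Core Ctx_Sal and Core HC_Sal share no title numbers. No paired analysis was possible because of this for the main comparison. For Core against Shell, the deviations of 10 same-numbered pairs from their group means had correlations of -0.13 to 0.31, and with 2 libraries a group in a series the deviations mirror each other, so some of these values repeat. Not every pair was over 0.1, so the numbers were not taken as pairs, although the libraries numbered 17 were high in cortical genes in both Core and Shell. With the replicate block 0 genes were called, with 4333 at an unadjusted p under 0.05, against 1688 without the block in the same libraries.

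None of the genes named had passed, and in these the estimate changed sign; the cause was not tested. With DESeq2 size factors Vgf was at 0.0023 and Arc at 0.023, and with the Wald test at 0.0024 and 0.022. With no series covariate they were at 0.039 and 0.092. With all 42 Core libraries Arc was at 0.0050, and without Core Ctx_Coc 17-F Arc was at 0.0089 and Npas4 at 0.0021. In the numbered series Vgf was at 0.033, Irs2 0.0080, Fos 0.0034, Arc 0.077, Npas4 0.18 and Nr4a1 0.16. In series 1 alone Vgf was at 0.53, Irs2 0.45, Junb 0.67, Fos 0.64, Fosb 0.37, Arc 0.56, Npas4 0.35, Nr4a1 0.43 and Cartpt 0.70. There 31 of the 71 genes named passed, beside 11328 of all 25735 genes tested. In series 2 alone Egr1 was at -0.32, Npas4 0.056, Bdnf 0.063, Drd1 -0.40, Drd2 -0.018, Pdyn -0.38, Penk -0.17, Tac1 -0.53, Adora2a -0.17, Mbp -0.17 and Rpl30 -0.25. In series F alone Egr1 was at -0.30, Drd2 -0.0042 and Penk -0.026.

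With the background as covariate Egr1 was at -0.48, Bdnf 0.11, Drd1 -0.27, Drd2 -0.10, Pdyn -0.21, Tac1 -0.35, Adora2a -0.083, Aqp4 -0.14, Mbp -0.22 and COX1 -0.079. The same covariate in all Core libraries without 17-F gave Egr1 -0.31, Bdnf 0.32, Drd1 -0.23, Drd2 -0.14, Pdyn -0.19, Penk -0.038, Tac1 -0.26, Adora2a -0.089, Aqp4 -0.084 and Mbp -0.15. Without the 3 libraries high in cortical genes Neurod2 was at -0.41, Neurod6 -0.34, Slc17a7 -0.55, Nptx1 -0.083, Cck -0.088, Cnr1 -0.028, Egr1 -0.24, Tac1 -0.094 and Mbp -0.060. With the covariate added, Neurod2 was at -0.34, Neurod6 -0.29, Slc17a7 -0.49, Nptx1 -0.20, Cck -0.12, Cnr1 -0.086, Egr1 -0.48, Drd1 -0.17, Drd2 -0.085, Pdyn -0.064, Tac1 -0.28, Aqp4 -0.13, Mbp -0.18 and COX1 -0.019. With a background above 9 Neurod2 was at -0.34, Neurod6 -0.27, Slc17a7 -0.47, Nptx1 -0.25, Cck -0.23, Hapln4 -0.10, Nptx2 -0.042, Cnr1 -0.084, Egr1 -0.47, Drd1 -0.11, Pdyn -0.0033, Tac1 -0.23, Aqp4 -0.030 and Mbp -0.00030. With 9 or below Vgf was at 0.10, Arc 0.029 and Cartpt 0.16, and 14 of 70 genes passed, beside 3449 of all 26089 tested. With 1 library left out, Vgf ran from -0.15 to 0.15, Irs2 from -0.24 to 0.073, Arc from -0.22 to 0.16, Egr1 from -0.15 to 0.25, Npas4 from -0.14 to 0.12, Nr4a1 from -0.19 to 0.12, Drd1 from -0.043 to 0.30, Pdyn from -0.057 to 0.28, Tac1 from -0.14 to 0.22 and Mbp from -0.023 to 0.30.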
